A study of Mus musculus with 11 samples.

Results

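The genes described here encode the pore, beta and other auxiliary subunits of the sodium, potassium, HCN and calcium channels of neurons. They are a fixed list of 45 symbols, found in a table of 14974 genes by name alone, and no measured value entered the choice. Voltage-gated channels open or close with the voltage across the membrane: sodium channels carry the upstroke of the action potential, potassium channels end it and set how fast a neuron can fire again, and calcium channels turn electrical activity into transmitter release and signals to the nucleus. HCN channels open when the membrane becomes more negative and steady the resting voltage, while beta and other auxiliary subunits bind the pore proteins and set their gating and their number at the surface. In the cortex the mix of these channels gives pyramidal neurons and fast-spiking interneurons their different firing patterns.

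RNA was sequenced in bulk from the anterior cingulate cortex (ACC), a part of the medial prefrontal cortex, of 6 trained mice (3 females and 3 males) and 5 untrained mice (3 females and 2 males), with 1 mouse per library. All were adult wild-type mice, 3 to 5 months old, of the strain labelled C57BL/6 and named C57BL/6J in the methods of the study. Trained mice were food-restricted and were taught to work a lever that delivered food, with the number of presses each reward cost raised in steps. Untrained mice were food-restricted too, stayed in the same kind of chamber for as long and got free rewards without pressing, and the ACC of both groups was dissected within 1 h of the last session. Values are FPKM, fragments scaled to gene length and library size, so levels can be ordered between genes. Each library is 1 mouse, and p-values reflect the spread between libraries. In the fit of training, which has no covariate, that spread includes any difference between the library number ranges described below. The depth of the libraries cannot be read from these values.

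The libraries carried the markers of cortex. Snap25, a presynaptic gene of all neurons, lay between 1179 and 1751 FPKM, and Slc17a7, the vesicular glutamate transporter of cortical excitatory neurons, between 694 and 761 FPKM. Drd1, a dopamine receptor gene of striatal neurons, was at 2.64 to 5.11 FPKM, and none of the defining markers of neurons or glia was at 0. The libraries are numbered, and earlier results of these data showed that the 6 libraries numbered 10 to 17 stand apart from the 5 numbered 1 to 6 across all genes. Each range holds 3 trained mice, but all 5 males and 1 female are in 10 to 17 and the other 5 females are 1 to 6. No source used here states what the numbers stand for. Untrained 10 also stood apart with 164 FPKM of Ttr, a choroid plexus gene, the most of the 11 libraries.

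Channel genes differed little between trained and untrained mice. At an unadjusted limma p under 0.05, 2 of the 45 genes, Scn3b and Kcnd3, were lower in trained mice, and 0 were higher. Of all 14936 genes tested, 4.20% were lower and 4.13% were higher by the same rule, so the share of channel genes was close to the background in 1 direction and below it in the other. None of the 45 passed the thresholds of the study, an unadjusted p under 0.01 with at least a 1.5-fold difference, which 0.281% of all genes passed here. None had a limma adjusted p under 0.05, and neither did any other gene (0%). For 1 channel gene, Scn3b, no trained value reached into the range of untrained values, against 0.763% of all genes.

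The means of 32 of the 45 genes were lower in trained mice and 13 were higher. The median log2 difference (trained minus untrained, on the log2(FPKM + 0.1) scale) was -0.04, against -0.003 over all genes, and single genes lay between -0.30 and 0.11. The 95% intervals of 30 genes lay within a 1.25-fold difference in either direction, and those of 15 reached beyond it, so a larger difference lies within the error of these 15. The widest interval was that of Kcnh7, an ERG-type potassium channel gene, from -0.54 to 0.55 around a difference of 0.00. By class, the medians lay between -0.11 for the sodium channel beta subunits and 0.01 for the T-type calcium channels. In bulk tissue, fewer cells of a type and less RNA per cell cannot be told apart.

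**Figure D1:**
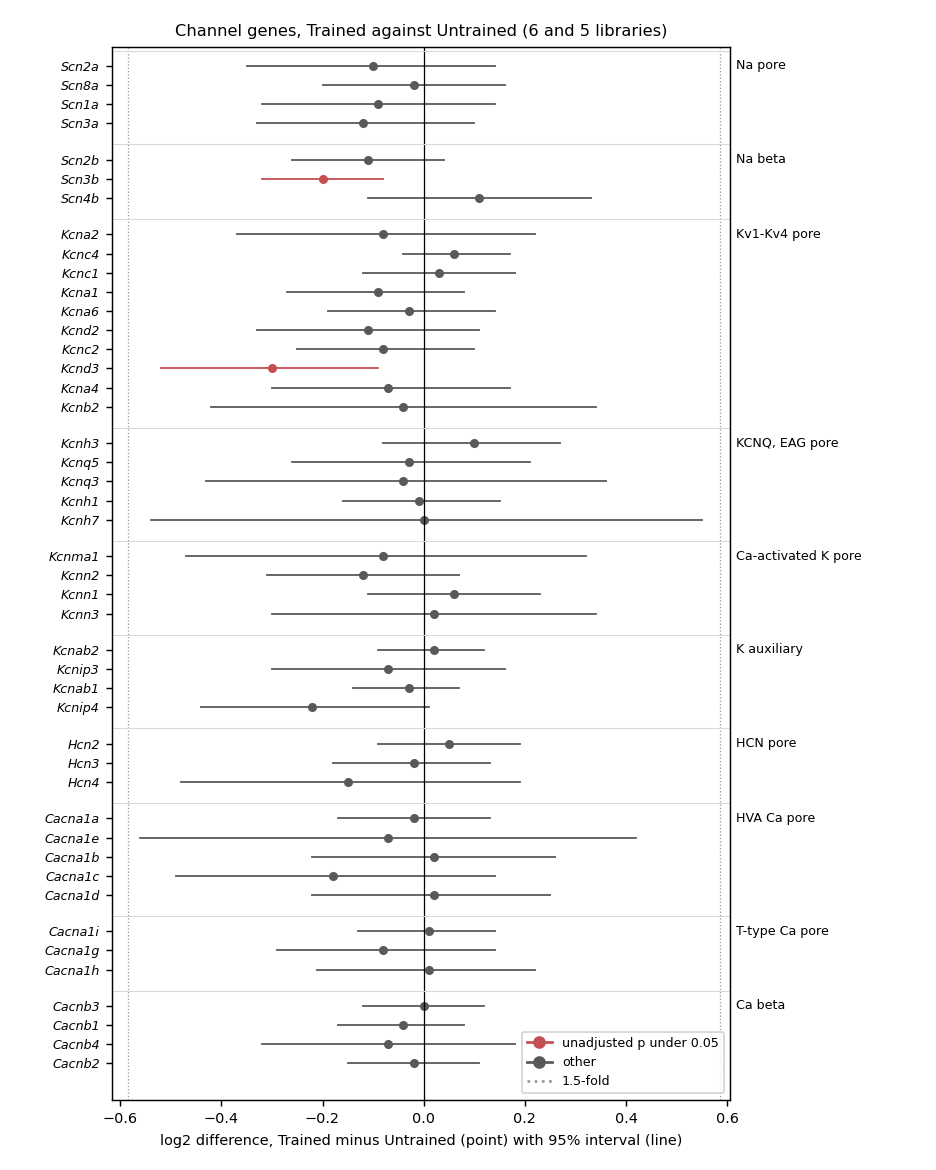
Log2 difference (trained minus untrained) of each of the 45 channel genes on the log2(FPKM + 0.1) scale, with points for the estimate and lines for the 95% interval from limma, over 6 trained and 5 untrained libraries; rows are grouped by channel class. Red marks Scn3b (-0.20) and Kcnd3 (-0.30), the 2 genes with an unadjusted p under 0.05, and all 45 points lie inside the dotted lines at 1.5-fold.

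The levels spanned from 1.12 FPKM (mean over 11 libraries) for Hcn4 to 137 FPKM for Kcnab2, with a median of 21.2 FPKM. The order at the top was Kcnab2, Cacnb3 at 98.2 FPKM, Scn2b at 88.7 FPKM, Scn2a at 64.5 FPKM and Hcn2 at 60.8 FPKM, so 3 of the 5 highest genes encode subunits that form no pore. Kcnab2 lay above Cacnb3 in every library. Cacnb3 and Scn2b overlapped (89.5 to 106 FPKM and 79.0 to 113 FPKM), as did Scn2a and Hcn2 (53.2 to 78.9 FPKM and 55.9 to 67.9 FPKM). At the lower end were Kcnb2 at 4.18 FPKM, Kcnn3 at 2.54 FPKM and Hcn4. The spread over libraries, as the coefficient of variation, ranged from 4.32% for Kcnab2 to 32.7% for Kcnh7.

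**Figure D2:**
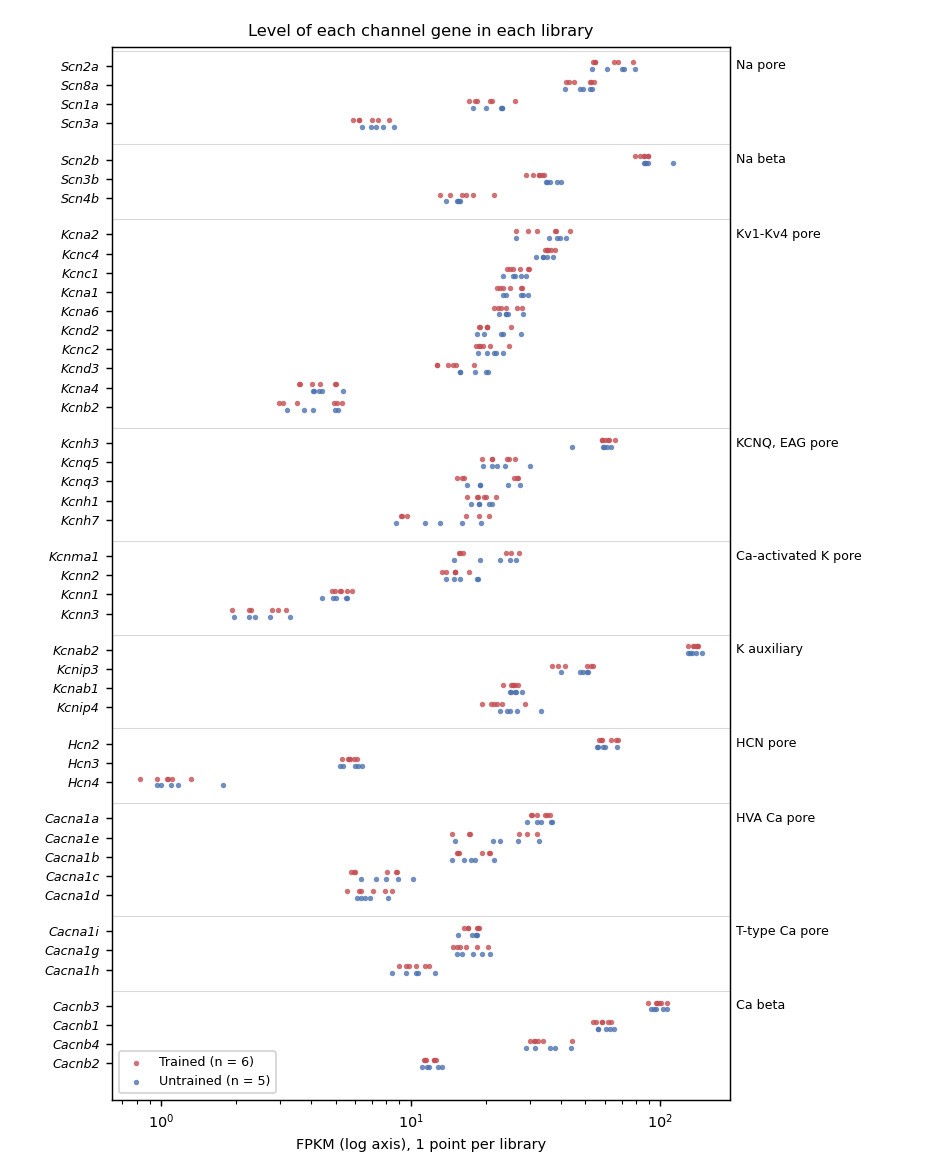
FPKM of the 45 channel genes in each library on a log axis, with red points for trained (n = 6) and blue points for untrained (n = 5) libraries, grouped by channel class. The genes run from Hcn4 near 1.12 FPKM to Kcnab2 near 137 FPKM, and for every gene but Scn3b the red and blue points overlap.

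The sodium channel pore genes did not differ between trained and untrained mice beyond the spread of the libraries, which includes that between the library ranges. Scn2a, which encodes the sodium channel of pyramidal neuron axons, was highest in the class, with a lowest, median and highest value of 53.6, 60.2 and 77.9 FPKM in trained mice, against 61.2, 53.2, 78.9, 70.4 and 71.5 FPKM in untrained mice. The groups overlapped over nearly their whole range, and the difference was -0.10 (95% interval -0.35 to 0.14, limma unadjusted p = 0.38). Scn8a, the other main channel of the axon initial segment, averaged 48.3 ± 5.56 FPKM (SD, n = 6) in trained mice, against 48.9 ± 4.64 FPKM (n = 5) in untrained mice. Scn1a, which interneurons depend on for firing, and Scn3a, best known from the embryonic brain, had differences of -0.09 and -0.12. All 4 means were lower in trained mice and 0 of the 4 passed at an unadjusted p under 0.05.

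Of the sodium channel beta subunits, Scn3b was lower in trained mice. Scn3b, whose product binds the pore subunit without a covalent bond, lies on chromosome 9 (mm10, 40269217 to 40291618). It had 28.9, 32.7 and 34.3 FPKM as the lowest, median and highest values in trained mice, against 35.0, 36.3, 35.3, 38.5 and 39.9 FPKM in untrained mice. The highest trained mouse was below the lowest untrained one, although by less than 1 FPKM. The means were 32.2 ± 1.99 FPKM (SD, n = 6) in trained mice, against 37.0 ± 2.13 FPKM (n = 5) in untrained mice, a difference of -0.20 ± 0.0563 (SE), or a ratio of 0.87. The limma unadjusted p was 0.0033 and the adjusted p over all genes was 0.54. The exact permutation test over all 462 splits (two-sided) gave p = 0.0043, where 0.0022 is the smallest that this design allows. The difference stayed at an unadjusted limma p under 0.05 in 22 of 23 alternatives. It was -0.21 within libraries 1 to 6 (limma unadjusted p = 0.0059) and -0.17 within libraries 10 to 17 (limma unadjusted p = 0.058). These alternatives reuse the same libraries or a part of them, so they are no independent test of the difference.

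The other sodium channel beta genes went in different directions. Scn2b, whose product is linked to the pore by a disulfide bond, was the highest of the class, with 79.0, 86.2 and 89.4 FPKM as the lowest, median and highest values in trained mice, against 86.5, 86.1, 113, 87.9 and 89.6 FPKM in untrained mice. The value of 113 FPKM was that of Untrained 10, and the groups overlapped (difference -0.11, limma unadjusted p = 0.14). Scn4b, known for the resurgent sodium current, averaged 16.6 ± 2.92 FPKM in trained mice, against 15.2 ± 0.784 FPKM in untrained mice (SD, n = 6 and 5), a difference of 0.11 (95% interval -0.11 to 0.33). The class median of -0.11 was -0.03 without Untrained 10.

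**Figure D3:**
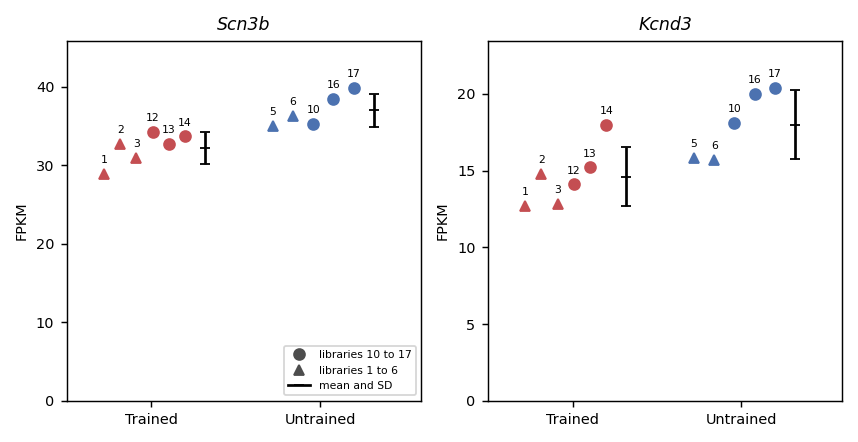
FPKM of Scn3b (left) and Kcnd3 (right) in each trained (red) and untrained (blue) library, labelled with the library number; circles are libraries 10 to 17, triangles are libraries 1 to 6 and black bars are the mean and SD. For Scn3b all trained points (up to 34.3 FPKM) lie below all untrained points (from 35.0 FPKM); for Kcnd3 the groups overlap through Trained 14 at 18.0 FPKM.

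Among the 10 pore genes of the Kv1 to Kv4 families, which end the action potential and delay the next one, Kcnd3 was lower in trained mice. Kcnd3 encodes a subunit of the A-type potassium current, which damps signals in dendrites, and lies on chromosome 3 (mm10, 105452330 to 105674002). Its lowest, median and highest values were 12.7, 14.4 and 18.0 FPKM in trained mice, against 15.8, 15.7, 18.1, 20.0 and 20.4 FPKM in untrained mice. Trained 14 was alone among the trained mice above the lowest untrained values, and the 3 highest values were all from untrained mice in libraries 10 to 17. The means were 14.6 ± 1.94 FPKM in trained mice, against 18.0 ± 2.22 FPKM in untrained mice (SD, n = 6 and 5), a difference of -0.30 ± 0.0986 (SE), or a ratio of 0.81. The limma unadjusted p was 0.0085, the adjusted p was 0.54 and the exact permutation p (two-sided) was 0.030. The difference was -0.23 within libraries 1 to 6 and -0.31 within libraries 10 to 17 (limma unadjusted p = 0.015 and 0.017), and -0.28 with the library range as a covariate. It was -0.19 (limma unadjusted p = 0.10) without Untrained 16 and 17 together and -0.24 (limma unadjusted p = 0.060) without Untrained 10 and 16 together. Of the exons of Kcnd3, 1.72% lie opposite the antisense gene Kcnd3os, and no source used here states whether the counting used strand.

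The promoter of Kcnd3 is shown as the sequence beside the larger of the 2 differences, and Scn3b had no promoter entry. The RefSeq start site of Kcnd3 lies before the gene start given above, which is from another annotation. Which of them the ACC uses was not tested. The window is the 100 bases before that RefSeq start site (GRCm38.p6, chr3:105451790-105451889, plus strand), 71.0% G and C. Capitals would mark the GC box GGGCGG or its reverse complement CCGCCC, and neither occurs in it:
Kcnd3: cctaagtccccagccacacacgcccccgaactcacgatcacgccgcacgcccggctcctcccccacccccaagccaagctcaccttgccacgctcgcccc

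The remaining Kv1 to Kv4 pore genes did not differ at an unadjusted p under 0.05. Kcna2, an axonal delayed rectifier that opens at low voltage, was the highest, with 26.4, 34.9 and 43.6 FPKM as the lowest, median and highest values in trained mice, against 35.9, 26.4, 38.6, 41.8 and 39.8 FPKM in untrained mice. Both groups reached down to the same value, and the difference was -0.08 (95% interval -0.37 to 0.22). Kcnd2, the partner of Kcnd3 in the A-type current, averaged 20.6 ± 2.34 FPKM in trained mice, against 22.4 ± 3.62 FPKM in untrained mice, a difference of -0.11 (SD, n = 6 and 5). Kcnc1 and Kcnc2, which let fast-spiking interneurons fire at high rates, had differences of 0.03 and -0.08. Kcnc4, of the same family, was at 0.06, and Kcna1, Kcna4, Kcna6 and Kcnb2 lay between -0.09 and -0.03. In all, 8 of the 10 means were lower in trained mice, and the class median was -0.07.

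The KCNQ and EAG-family genes and the calcium-activated potassium channels showed no difference with training that passed. Kcnh3, an EAG-like potassium channel of the forebrain, was the highest of its class, with 58.5, 61.0 and 65.9 FPKM as the lowest, median and highest values in trained mice, against 63.5, 61.4, 44.4, 59.6 and 59.2 FPKM in untrained mice. Only Untrained 10, at 44.4 FPKM, lay below the trained mice, and the difference was 0.10 (limma unadjusted p = 0.25). Kcnq3 and Kcnq5 carry the M current, which muscarinic receptors shut, and their differences were -0.04 and -0.03 (95% intervals -0.43 to 0.36 and -0.26 to 0.21). Kcnh1, of the ether-a-go-go type, and Kcnh7 were at -0.01 and 0.00.

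Kcnma1 encodes the BK channel, which opens with both voltage and calcium. Its lowest, median and highest values were 15.6, 20.2 and 27.2 FPKM in trained mice, against 19.0, 14.9, 22.7, 26.5 and 25.1 FPKM in untrained mice. The groups overlapped (difference -0.08, 95% interval -0.47 to 0.32), and in each group the values of libraries 10 to 17 lay above those of libraries 1 to 6. The SK channel genes Kcnn1, Kcnn2 and Kcnn3, whose products open with calcium alone and slow repeated firing, were at 0.06, -0.12 and 0.02.

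Of the auxiliary potassium channel genes, Kcnip4 had the largest difference, between those of Kcnd3 and Scn3b in size, but it did not pass. Kcnip4, which encodes a calcium-binding partner of the Kcnd2 and Kcnd3 channels, averaged 22.7 ± 3.20 FPKM in trained mice, against 26.4 ± 4.08 FPKM in untrained mice (SD, n = 6 and 5), a difference of -0.22 (95% interval -0.44 to 0.01, limma unadjusted p = 0.062). It passed an unadjusted p under 0.05 in 6 of 23 alternatives. Kcnip3, a partner of the same channels, had a difference of -0.07. Kcnab2, a cytoplasmic beta subunit of the Kcna channels, had 129, 139 and 142 FPKM as the lowest, median and highest values in trained mice, against 147, 139, 134, 131 and 129 FPKM in untrained mice. The groups shared the same lowest value, and the difference was 0.02 (95% interval -0.09 to 0.12). Kcnab1, its relative, was at -0.03 (95% interval -0.14 to 0.07).

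Of the 3 HCN pore genes, 0 passed with training at an unadjusted limma p under 0.05. Hcn2, the most abundant of them in this tissue, had 56.6, 60.9 and 67.9 FPKM as the lowest, median and highest values in trained mice, against 66.9, 59.0, 60.1, 55.9 and 56.2 FPKM in untrained mice. The ranges were nearly the same (difference 0.05, limma unadjusted p = 0.43). Hcn3 averaged 5.72 ± 0.281 FPKM in trained mice, against 5.83 ± 0.521 FPKM in untrained mice. Hcn4, best known from the pacemaker cells of the heart, averaged 1.06 ± 0.164 FPKM in trained mice, against 1.20 ± 0.329 FPKM in untrained mice, with the highest value, 1.77 FPKM, in Untrained 10.

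None of the calcium channel genes differed with training at an unadjusted limma p under 0.05, which makes 0 of 5 high-voltage-activated pores, 0 of 3 T-type pores and 0 of 4 beta subunits. Cacna1a, which encodes the P/Q-type channel that triggers transmitter release, was the highest of the 5 high-voltage-activated pore genes, with 30.4, 33.2 and 36.0 FPKM as the lowest, median and highest values in trained mice, against 32.1, 29.2, 36.9, 36.4 and 33.4 FPKM in untrained mice. The trained values lay inside the untrained range, and the difference was -0.02 (95% interval -0.17 to 0.13). Cacna1b, the N-type channel, and Cacna1d, an L-type channel, were both at 0.02, Cacna1e, the R-type channel, was at -0.07, and Cacna1c, the main L-type channel of the brain, was at -0.18 (limma unadjusted p = 0.25).

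Of the T-type channels, which open near rest, Cacna1i was the highest, with 16.4, 17.8 and 18.7 FPKM as the lowest, median and highest values in trained mice, against 18.3, 15.5, 17.6, 18.4 and 18.3 FPKM in untrained mice. Untrained 6, at 15.5 FPKM, was below all other mice, and the difference was 0.01. Cacna1g and Cacna1h were at -0.08 and 0.01. Of the calcium channel beta subunits, which bring the pore to the membrane, Cacnb3 had 89.5, 97.9 and 106 FPKM as the lowest, median and highest values in trained mice, against 106, 103, 91.6, 94.5 and 96.4 FPKM in untrained mice. The 2 groups covered nearly the same values, with means of 98.2 ± 5.50 FPKM in trained mice, against 98.3 ± 5.96 FPKM in untrained mice (SD, n = 6 and 5). Cacnb1, Cacnb2 and Cacnb4 lay between -0.07 and -0.02. The intervals of all 3 T-type and all 4 beta genes lay within 1.25-fold.

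The channel genes were instead separated by the library number. With training as a covariate, 21 of the 45 genes (46.7%) were higher in libraries 10 to 17 than in libraries 1 to 6 at a limma adjusted p under 0.05, against 6.56% of all genes tested, and 2 were lower, Kcnip3 and Hcn2, against 2.95%. The libraries of the ranges did not overlap for 18 channel genes that were higher in 10 to 17 (4.89% of all genes) and for 1 that was lower, Kcnab2 (2.27%). The ranges were known from earlier results to separate the libraries, so these counts describe that separation and are no independent test of it. The median difference (10 to 17 minus 1 to 6) of the 45 genes was 0.20, against -0.003 over all genes.

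The count of 23 channel genes past the adjusted threshold in both directions was 13 without Trained 1, 15 without Trained 2, 13 without Trained 3, 12 without Trained 14 and 13 without Untrained 6, and between 16 and 28 without each of the others. With sex as a further covariate it was 0 in limma, as it was for all genes. There the unadjusted p was under 0.05 for 11 channel genes that were higher and for 0 that were lower. The share of all genes at this unadjusted threshold was not computed, so the 11 have no background to be set against. In that fit 1 mouse, Untrained 17, is the female that tells the ranges and the sexes apart. Untrained 17 lay above every library numbered 1 to 6 in all 21 genes that were higher in 10 to 17. In 5 of these 21 genes it also lay below every male library, and in 16 it lay within or above the values of the 5 males. It is itself 1 of the 6 libraries that made those calls.

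The largest differences between the ranges were in potassium and calcium channel pores. Kcnh7, on chromosome 2 (mm10, 62693414 to 63184287), had 13.1, 17.8 and 20.6 FPKM as the lowest, median and highest values in libraries 10 to 17, against 9.12, 9.70, 9.19, 11.4 and 8.71 FPKM in libraries 1 to 6. The difference was 0.85 ± 0.106 (SE), a ratio of 1.80 (limma adjusted p = 0.0033). The ranges did not overlap, and Untrained 10 was the lowest of 10 to 17 and Untrained 5 the highest of 1 to 6.

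Kcnma1, on chromosome 14 (mm10, 23289431 to 24014491), had 22.7, 25.2 and 27.2 FPKM as the lowest, median and highest values in libraries 10 to 17, against 16.2, 15.8, 15.6, 19.0 and 14.9 FPKM in libraries 1 to 6. The difference was 0.63 ± 0.0679 (SE), a ratio of 1.54 (limma adjusted p = 0.0021). Cacna1e, on chromosome 1 (mm10, 154390731 to 154884501), had 22.8, 28.2 and 32.6 FPKM in the same order in libraries 10 to 17, against 17.3, 14.6, 17.1, 21.4 and 15.1 FPKM in libraries 1 to 6. Its difference was 0.74 ± 0.109 (SE), a ratio of 1.67 (limma adjusted p = 0.0037), and again Untrained 10 was closest to Untrained 5. The L-type gene Cacna1c had 7.98, 8.78 and 10.2 FPKM in libraries 10 to 17, against 5.91, 5.78, 6.01, 7.26 and 6.33 FPKM in libraries 1 to 6, a ratio of 1.38. For Scn2a the values were 65.4, 70.9 and 78.9 FPKM in libraries 10 to 17, against 53.6, 55.0, 54.8, 61.2 and 53.2 FPKM in libraries 1 to 6, a ratio of 1.29. For each of these 5 genes the ranges did not overlap. Directly after Kcnma1 in size came Kcnq3 (0.58) and Kcnb2 (0.56), a delayed rectifier, and the other 16 genes that were higher in libraries 10 to 17, Cacna1c and Scn2a included, lay between 0.19 and 0.47.

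For the 3 genes with the largest differences between the ranges, the 100 bases before a RefSeq start site are shown (GRCm38.p6, minus strand). They are at chr14:24004206-24004305 for Kcnma1, chr2:63184288-63184387 for Kcnh7 and chr1:154725921-154726020 for Cacna1e. The Kcnh7 window lies directly outside the gene coordinates given above. Those of Kcnma1 and Cacna1e lie inside them, before internal start sites, and which start site the ACC uses was not tested. Capitals mark the GGGCGG box, read on either strand:
Kcnma1: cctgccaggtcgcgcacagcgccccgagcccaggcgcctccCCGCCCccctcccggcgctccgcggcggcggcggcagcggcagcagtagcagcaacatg
Kcnh7: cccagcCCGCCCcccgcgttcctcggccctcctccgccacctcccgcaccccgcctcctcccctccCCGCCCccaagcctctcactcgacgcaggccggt
Cacna1e: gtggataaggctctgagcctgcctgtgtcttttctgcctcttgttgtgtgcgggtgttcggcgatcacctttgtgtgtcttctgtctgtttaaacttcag
Kcnh7 holds the box 2 times and Kcnma1 1 time, with 79.0% and 80.0% G and C, while Cacna1e, with 50.0%, holds it 0 times. The 3 windows do not share it, which does not speak for other start sites of these genes. Of the 45 genes 34 had an entry, with 56 such windows, and 14 windows (25.0%) held the box, against 24.7% of the 32851 windows of all genes. The motif TGACG, the core of the CREB site, was in 7.1% of the channel windows against 10.5% of all windows, and TATAAA in 1.8% against 5.6% (both strands). The median G and C content was 61.5% against 55.0%. A match is a run of letters only, and no binding was measured.

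Pore and auxiliary genes differed in how many followed the library number. Of the 34 pore genes 20 were higher in libraries 10 to 17 at an adjusted p under 0.05 and 1 was lower, with a median difference of 0.26. Of the 11 beta and other auxiliary genes 1 was higher (Cacnb4) and 1 was lower (Kcnip3), with a median of -0.02. Of the exon bases of Cacnb4, 15.99% lie opposite another gene. All 4 sodium channel pore genes and all 5 high-voltage-activated calcium channel pore genes were among the 20, with class medians of 0.29 and 0.34. The T-type genes (0.16) had 0 of 3 past the adjusted threshold. At an unadjusted limma p under 0.05, 2 of the 3 were higher, against 2288 of all 14936 genes. The HCN genes had a median of 0.00, with Hcn2 at 57.5 ± 1.61 FPKM in libraries 10 to 17 and 64.8 ± 3.65 FPKM in libraries 1 to 6 (SD, n = 6 and 5).

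The size of these differences went with gene length. Over the 45 genes, the difference between the ranges and the log2 of the exon length had r = 0.80 and rho = 0.79, against r = 0.27 and rho = 0.36 over the 14339 genes with a length. With the genomic span in place of the exon length the values were r = 0.61 and rho = 0.62, against r = 0.25 and rho = 0.32. Genes share libraries and are not independent replicates, so these are descriptions. Of the 16 channel genes with exons of at least 10 kb, 14 were higher in libraries 10 to 17, against 32.2% of the 1390 genes of that length. Of the 17 between 5 and 10 kb, 7 were higher, against 7.47% of 4741 genes, and of the 12 between 2.5 and 5 kb, 0 were higher and 2 were lower in limma, against 1.97% and 3.95% of 5272 genes. The median exon length was 9812 bases in the pore genes and 4982 bases in the auxiliary genes, so role and length cannot be told apart in this list.

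**Figure D4:**
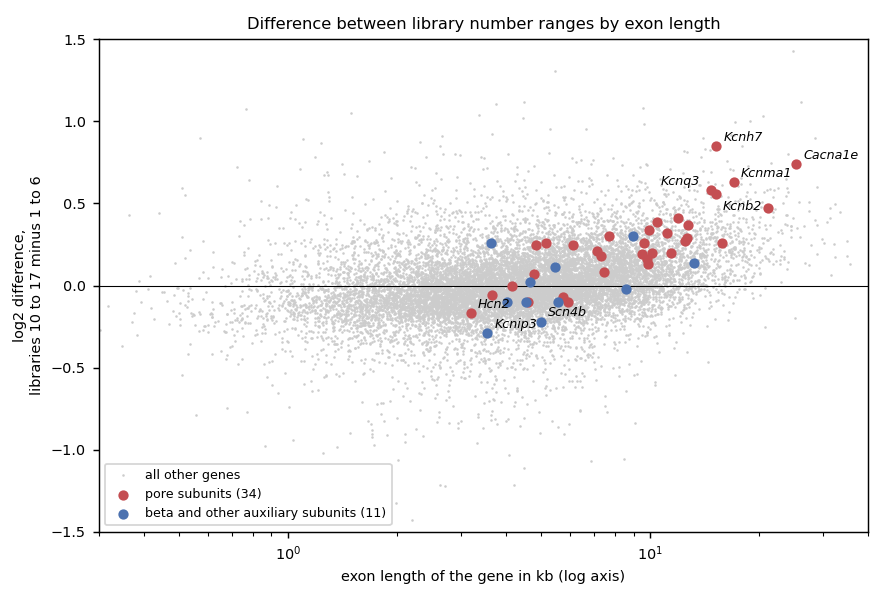
Log2 difference between libraries 10 to 17 and libraries 1 to 6 (limma, training as a covariate) against exon length in kb on a log axis, with red points for the 34 pore genes, blue points for the 11 auxiliary genes and grey points for all other genes. Genes beyond a difference of 1.5 are not drawn. Channel genes of short exon length lie on both sides of 0, as Kcnip3 at -0.29 and Kcnip4 at 0.26. The largest differences, 0.74 for Cacna1e and 0.85 for Kcnh7, are among the longest genes.

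Of the cell marker lists, only that of oligodendrocytes moved as a whole with the library number. All 6 oligodendrocyte markers were lower in libraries 10 to 17 at a limma adjusted p under 0.05, with a median difference of -0.97, and their summed level was 275 to 475 FPKM in 10 to 17, against 501 to 1036 FPKM in 1 to 6. Of the 7 markers of all neurons 0 passed the adjusted threshold in limma. At an unadjusted limma p under 0.05, 1 was higher, against 2288 of all 14936 genes. The sums of the 7 were 2888 to 3591 FPKM in 10 to 17 and 2822 to 2916 FPKM in 1 to 6. At the adjusted threshold, 0 markers of excitatory neurons, microglia or endothelium passed. Astrocytes had 1 lower marker, interneurons 1 higher, fast-spiking interneurons 1 lower, and striatal neurons 1 higher and 1 lower. Of all genes, 6.56% were higher and 2.95% were lower at that threshold. The part of the marker differences in the channel differences was not tested. Between trained and untrained mice, 0 of the 6 oligodendrocyte markers passed in limma at an unadjusted p under 0.05, and the sums overlapped (275 to 1036 FPKM in trained and 332 to 592 FPKM in untrained mice).

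**Figure D5:**
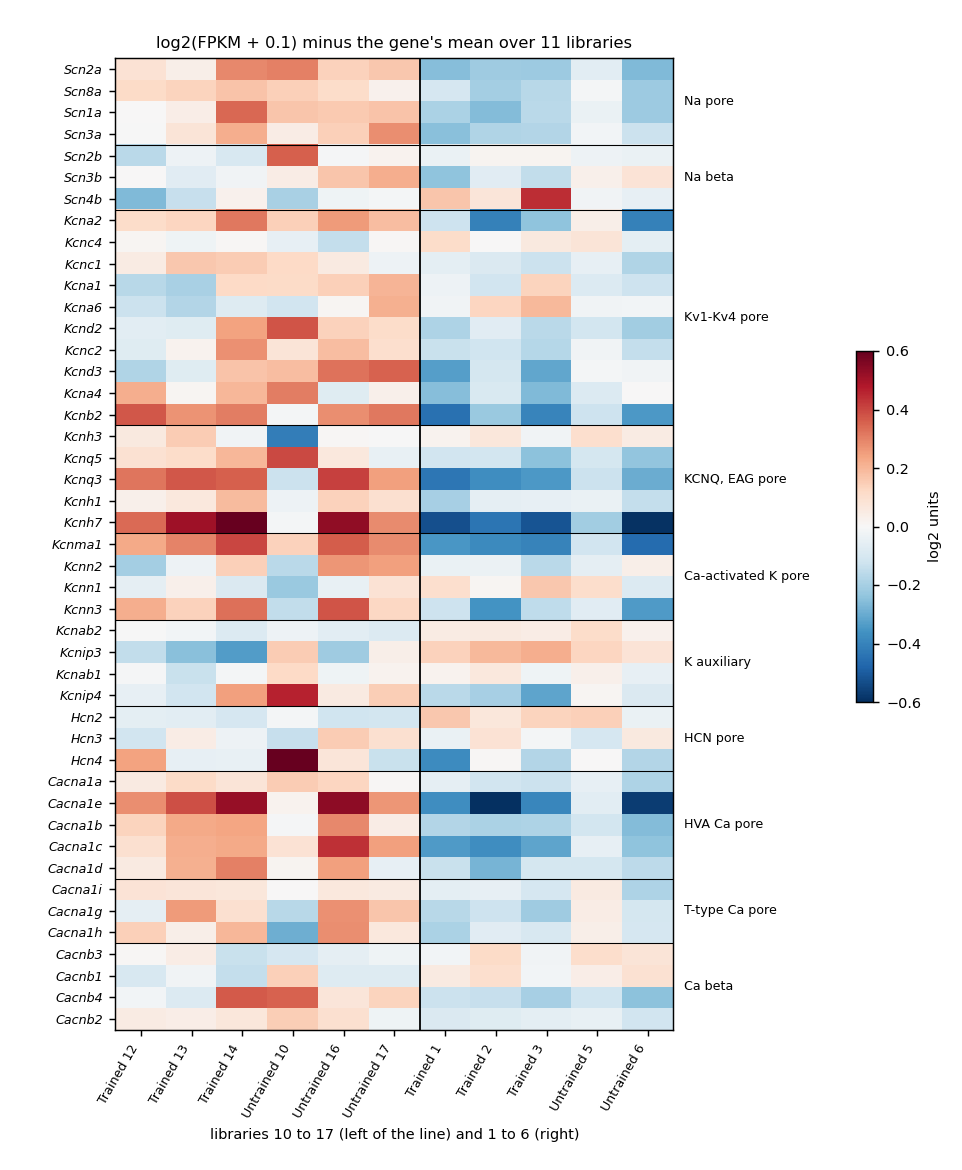
Log2(FPKM + 0.1) of each channel gene minus its mean over the 11 libraries, in red where higher and blue where lower (the colour scale is capped), with libraries 10 to 17 left of the black line and libraries 1 to 6 right of it. Most sodium, potassium and calcium channel pore genes are red on the left and blue on the right, with Kcnh7, Kcnma1 and Cacna1e the strongest, while Scn2b, Kcnh3 and Hcn4 stand out in Untrained 10 alone.

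Single libraries showed the same order. The median deviation of the 45 genes from their own means was lowest in Trained 3, at -0.15, and highest in Trained 14, at 0.17, while the same median over all genes was between -0.00 and 0.01 in every library. Untrained 10 held the highest value of 11 channel genes, and Trained 14 and Untrained 16 of 9 each. Untrained 6 held the lowest value of 12. The pore genes alone ran from -0.18 in Untrained 6 to 0.20 in Trained 14, and the auxiliary genes from -0.07 in Trained 13 to 0.14 in Untrained 10.

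The genes that were higher in males were also higher in libraries 10 to 17. With training as a covariate, 10 channel genes were higher in males at a limma adjusted p under 0.05 (1.19% of all genes): Scn2a, Scn8a, Kcnq5, Kcnh7, Kcnma1 and the 5 high-voltage-activated calcium channel pore genes. None was lower in males at that threshold (0.937% of all genes). At an unadjusted limma p under 0.05, 4 were lower, against 1451 of all 14936 genes, a share close to that of the channel genes. All 10 are among the 21 genes that passed for the library number. Kcnq5 was at 25.8 ± 2.53 FPKM in males and 20.7 ± 1.13 FPKM in females (SD, n = 5 and 6), a difference of 0.32 (limma adjusted p = 0.037). Scn8a was at 53.1 ± 0.855 FPKM in males and 44.8 ± 3.20 FPKM in females, and Cacna1b at 19.9 ± 1.57 FPKM in males and 15.9 ± 1.20 FPKM in females, with differences of 0.25 and 0.32. Kcnh7 and Kcnma1 differed by 0.74 and 0.54.

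The values of single mice were spread differently for these genes. Kcnq5 had 30.1, 24.4, 24.7, 26.2 and 23.9 FPKM in males (Untrained 10, Trained 12 to 14 and Untrained 16), against 19.3, 21.1 and 22.1 FPKM as the lowest, median and highest values in females. Scn8a had 53.4, 52.4, 53.0, 54.4 and 52.2 FPKM in the same males, against 41.6, 44.0 and 49.2 FPKM in females. Neither gene had an overlap between the sexes, and the female with the highest value was Untrained 17 in both. The sexes overlapped in the other 3 of these 5 genes. The lowest male value was 13.1 FPKM for Kcnh7, 22.7 FPKM for Kcnma1 and 17.5 FPKM for Cacna1b, against a highest female value of 16.1 FPKM for Kcnh7, 25.1 FPKM for Kcnma1 and 18.1 FPKM for Cacna1b.

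Sex and library number could hardly be told apart. With the library range as a further covariate, 0 of the 45 genes passed the adjusted threshold for sex in limma, where the unadjusted p was under 0.05 for 1 gene that was lower and for 0 that were higher. The count of 10, all higher, was 18 without Untrained 10 (17 higher, 1 lower) and 1 (Kcnq5) without Untrained 16. Without Untrained 17 it was 17 (16 higher, 1 lower). In that fit the sexes and the ranges are the same libraries, so it says nothing on sex alone. The count was 0 in limma without any one of the other 8 mice, and 6 with median centring of the libraries. In each of those 8 fits 22 to 24 channel genes were higher at an unadjusted p under 0.05. In the main fit 26 were, against 1880 of all 14936 genes, and that share was not computed for the other fits of this paragraph.

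The difference with training was not shown to differ between the sexes for any channel gene. In the interaction of sex and training, none of the 45 (0) had an adjusted p under 0.05 in limma, while 3 had an unadjusted p under 0.05, against 4.10% of all genes. They were Scn2b, Kcnq3 and Kcnip3, whose difference with training in males minus that in females was -0.29, 0.54 and -0.32. Only 2 untrained males enter, and Untrained 10 stood apart from the other males in all 3 genes. Scn2b was at 113 FPKM in Untrained 10, 87.9 FPKM in Untrained 16 and 79.0 to 86.4 FPKM in trained males. For Kcnq3 these values were 18.9, 27.5 and 25.9 to 26.8 FPKM, and for Kcnip3 51.5, 39.9 and 36.7 to 41.7 FPKM.

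Of 76 other sodium, potassium, HCN and calcium channel genes, 69 were tested. With training, the unadjusted limma p was under 0.05 for 3 that were higher and 6 that were lower, against 4.13% and 4.20% of all genes. None (0) had an adjusted p under 0.05, and the median difference was -0.02. Kcng2, a silent Kv subunit that modifies the Kcnb channels, averaged 3.72 ± 0.404 FPKM in trained mice, against 2.97 ± 0.413 FPKM in untrained mice (SD, n = 6 and 5), a difference of 0.32 (limma unadjusted p = 0.0096, adjusted p = 0.54). Between the ranges, 11 of the 69 were higher in libraries 10 to 17 at a limma adjusted p under 0.05, against 6.56% of all genes. At that threshold 0 were lower, against 2.95%. At an unadjusted limma p under 0.05, 6 were lower, against 1740 of all 14936 genes. Of the cell markers, 1 passed an unadjusted limma p under 0.01 with training: Pde10a, a phosphodiesterase gene of striatal neurons. Pde10a averaged 10.1 ± 1.28 FPKM in trained mice, against 12.3 ± 0.629 FPKM in untrained mice, a difference of -0.29. Its limma adjusted p was 0.54. The striatal list did not move as a whole, with a median difference of 0.01 over its 7 markers. Their summed level overlapped (63.5 to 91.4 FPKM in trained and 67.4 to 75.4 FPKM in untrained mice). How many of all genes reach p under 0.01 alone was not computed.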

How the data were processed

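The authors made stranded mRNA libraries (Kapa kit) from the ACC of single mice, and left out 1 untrained male with few reads. Per the submitters' processing notes and the study's methods, reads were trimmed with Trimmomatic 0.38, mapped with Bowtie2 2.3.5.1 on the mm10 build, and assigned to genes by featureCounts of Subread 1.6.3. The authors deposited FPKM values, fragments scaled to gene length and library size, for 14974 genes in 11 libraries, and a table of log2 fold changes, p-values and false discovery rates from edgeR 3.30.3, which was not used. No source used here states the gene annotation, the strand setting or the step from counts to FPKM. Depth could not be recovered, since low values lay within 0.1 of whole-fragment steps in only 26.2% to 44.3% of cases per library, so count models were not run.

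The 14936 genes whose mean was 0.1 FPKM or more entered the tests, and log2(FPKM + 0.1) was fitted with limma 3.58.1 in R 4.3.3 (lmFit, eBayes with a trend), with Benjamini-Hochberg adjustment over all genes. The fits compared trained with untrained mice without covariates, males with females and libraries 10 to 17 with 1 to 6 with training as a covariate, and the interaction of sex and training. Single genes were also compared by exact permutation. Python 3.11.15, numpy 2.4.6, pandas 2.3.3, scipy 1.17.1 and matplotlib 3.10.9 did the rest, and the limma fit was tested on simulated data. Alternatives were pseudocounts of 0.01 and 1, a minimum mean of 1 FPKM or none, quantile normalization, median centring, sex or library range as a covariate, each range alone, and leaving out libraries.

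Symbols matched 44 of the 45 genes, and Scn2a was listed under the older symbol Scn2a1. A further 23 names in the deposited file read as dates, numbers or blanks, and those rows stayed unnamed. Coordinates and exon lengths are from GENCODE M21 (14376 names matched, 96.0%) and promoters from RefSeq. Exons of Kcna6 (39.61%), Hcn3 (17.12%) and Cacnb4 (15.99%) lie opposite other genes, whose reads cannot be told apart without the strand setting. Values per library are given for genes at an unadjusted p under 0.05 with training, for up to 5 genes past the adjusted threshold for sex and for library range, and for the highest gene of each of the 10 classes. The members, the lists and the library ranges were chosen with earlier results of these data known.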

Additional observations from a re-analysis of the deposited data

Results flagged for a closer look

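In 8 of 90 groups (45 genes in trained and in untrained mice) the highest or lowest library stood far from the rest. Chance gives this in about 1 in 20 independent groups. The genes share the same libraries, so these groups are not independent and the 8 do not measure an excess. Untrained 10 was the outlying library for 5 genes. It was high in Scn2b at 113 FPKM, against 86.1 to 89.6 FPKM in the other untrained mice, in Kcna4 at 5.35 FPKM (4.06 to 4.40 FPKM) and in Hcn4 at 1.77 FPKM (0.963 to 1.17 FPKM). It was low in Scn4b at 13.8 FPKM (15.3 to 15.7 FPKM) and in Kcnh3 at 44.4 FPKM (59.2 to 63.5 FPKM). The same library had the most Ttr, at 164 FPKM, and whether that is related was not tested. Trained 14 was high in Kcnd2 at 25.2 FPKM, against 18.7 to 20.3 FPKM in the other trained mice, and in Cacnb4 at 44.5 FPKM (30.0 to 34.0 FPKM). Untrained 6 was low in Cacna1i at 15.5 FPKM, against 17.6 to 18.4 FPKM in the other untrained mice.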

How the results depend on the processing

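The count of channel genes higher in trained mice (0) was 1, Scn4b, within libraries 1 to 6. The count of lower genes (2) was 4 with sex as a covariate, which adds Kcnip4 and Cacna1c, and 5 within libraries 1 to 6 (Scn3b, Kcnd3, Kcnq3, Kcnip4 and Cacna1c). It was 1 without Untrained 16 and 17, 1 without Untrained 10 and 16, and 2 to 3 when each library was left out, where the added gene was Kcnip4 or Kcnn2. Within libraries 10 to 17 it was also 2, but of Kcna1 and Kcnd3. The share of all genes at the unadjusted threshold was not computed for these fits, so their counts have no background to be set against. The count past an adjusted p stayed at 0 in limma in all 23 alternatives. The count for library range (23) was 0 with sex as a covariate and 12 to 28 leaving out each library, and that for sex (10) was 6 with median centring, 0 with library range as a covariate and 0 to 18 leaving out each library. The class median of the sodium channel beta subunits (-0.11) was 0.03 within libraries 1 to 6, -0.17 within libraries 10 to 17, -0.03 without Untrained 10 and 16 and -0.13 to -0.03 leaving out each library. The KCNQ and EAG-family median (-0.01) was 0.18 and that of the potassium channel auxiliary genes (-0.05) was -0.14 within libraries 10 to 17, where 3 trained and 3 untrained mice remain. The causes were not tested. No paired analysis was possible because the trained and untrained libraries share no numbers.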
